A study of Mus musculus with 8 samples.

Results

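The miR-34 and miR-449 family is a group of small regulatory RNAs, most of which share a seed, the stretch of bases by which a miRNA recognises its target mRNAs. Its members on the array were mmu-miR-34a, mmu-miR-34b-5p, mmu-miR-34b-3p, mmu-miR-34c, mmu-miR-449a, mmu-miR-449b and mmu-miR-449c (written below without the prefix mmu, for mouse), which were 7 of the 1040 mouse miRNA probes of the deposited table, found by name. The family was selected on the values of these same arrays, on which miR-34a was bright in medullary thymic epithelial cells. The levels of its members are therefore given as a description, and nothing is concluded from the members' results in the fit across miRNAs. RNA was measured in 3 preparations of CD45+ cells, 2 of cortical thymic epithelial cells (cTECs) and 3 of medullary thymic epithelial cells (mTECs). All of the cells were sorted by flow cytometry from untreated NOD wildtype females, 4 weeks old by the labels, and each isolation started from the combined thymi of 10 to 12 mice, which makes every replicate a pool of animals. Both epithelial populations were CD45-, EpCAM+ and MHC II+, with cTECs taken as Ly51+ and mTECs as Ly51-, while the CD45+ cells, mainly thymocytes, were EpCAM-. Such a gate does not separate the subsets that either epithelial population holds.

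miR-34a is among the best known miRNAs under transcriptional control of p53, the tumour suppressor that responds to DNA damage, and it represses genes of cell cycle entry and survival. miR-34b and miR-34c are made from a single transcript, and miR-449a, miR-449b and miR-449c from an intron of Cdc20b. The miR-34b/c and miR-449 clusters are best known from multiciliated epithelium of the airway, oviduct and efferent ducts, where they act in the formation of motile cilia.

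Mature sequences were held for 5 of the 7 members and for 3 opposite strands, from RefSeq (GRCm38.p6). They are shown because the shared seed, bases 2 to 8 in capitals, is what makes most of these miRNAs a family. Probes that share a seed differ only in the bases outside it. Whether a member also bound the probe of another was not tested.

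miR-34a: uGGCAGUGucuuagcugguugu

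miR-34b-5p: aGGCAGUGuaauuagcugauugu

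miR-449a: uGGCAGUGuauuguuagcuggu

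miR-449c: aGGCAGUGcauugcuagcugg

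miR-34b-3p: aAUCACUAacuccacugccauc

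miR-34c*: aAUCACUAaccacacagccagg

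The seed GGCAGUG was complementary to 6 of the 1040 probes, those of miR-34a, miR-34b-5p, miR-34c, miR-449a, miR-449b and miR-449c. The seed AUCACUA belongs to miR-34b-3p, which comes from the other arm of the miR-34b hairpin, and was found in 1 further probe, that of miR-34c*, the opposite strand of miR-34c. Position by position from the 5′ end, miR-449a and miR-449c were identical at 18 of 21 bases and differed by U1A, U9C and U14C. miR-34a and miR-449a were identical at 15 of 22 bases, and miR-34b-3p and miR-34c* at 17 of 22. In GRCm38.p6 the miR-34a hairpin lies on the plus strand of chr4:150068454-150068555, outside the span of any other gene in the RefSeq table. The hairpins of miR-34c (chr9:51103034-51103110) and miR-34b (chr9:51103562-51103645) lie on the minus strand, 451 bases apart, within the spans of Hoatz and Btg4. The hairpins of miR-449c (chr13:113035983-113036091) and miR-449a (chr13:113037534-113037624) lie on the plus strand, 1442 bases apart, within the span of Cdc20b, a location for which exon and intron were not resolved here.

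Signals below are scaled signals: the background-subtracted Cy3 intensity, averaged over the 5 spots of a probe, after all arrays were brought to a common 75th percentile, taken over the 65 mouse probes that were measured on each of them. A probe counts as well above background, or measured, on an array where the scanner software called most of its spots so. Between 98 and 122 mouse probes reached this on the cTEC arrays, against 169 to 229 on the CD45+ and 236 to 325 on the mTEC arrays. The unscaled 75th percentile was 2910 and 1364 on the cTEC arrays and 4213 to 11503 on the others, so the scaling enlarges the noise of the cTEC arrays most. Signals are not compared between probes, since probes differ in how they bind and label.

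miR-34a was the member measured in more than 1 cell type, and its signal was highest in mTECs, intermediate in CD45+ cells and lowest in cTECs. Its scaled signal was 8139, 6334 and 5487 on the mTEC arrays, a mean of 6653 ± 1354 (SD, n = 3). On the CD45+ arrays it was 1920, 1859 and 1731, a mean of 1837 ± 96.0 (SD, n = 3). On the cTEC arrays it was 449 and 490, a mean of 469 ± 29.1 (SD, n = 2), and only the first of these was well above background. The arrays of the 3 cell types did not overlap. The lowest mTEC array was 2.86 times the highest CD45+ array. The order was the same in unscaled signal, which ran from 4621 to 16209 on the mTEC arrays and from 2495 to 3671 on the CD45+ arrays, and was 226 and 116 on the cTEC arrays. In bulk samples such as these, fewer cells with a miRNA and less of it per cell cannot be told apart.

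**Figure D1:**
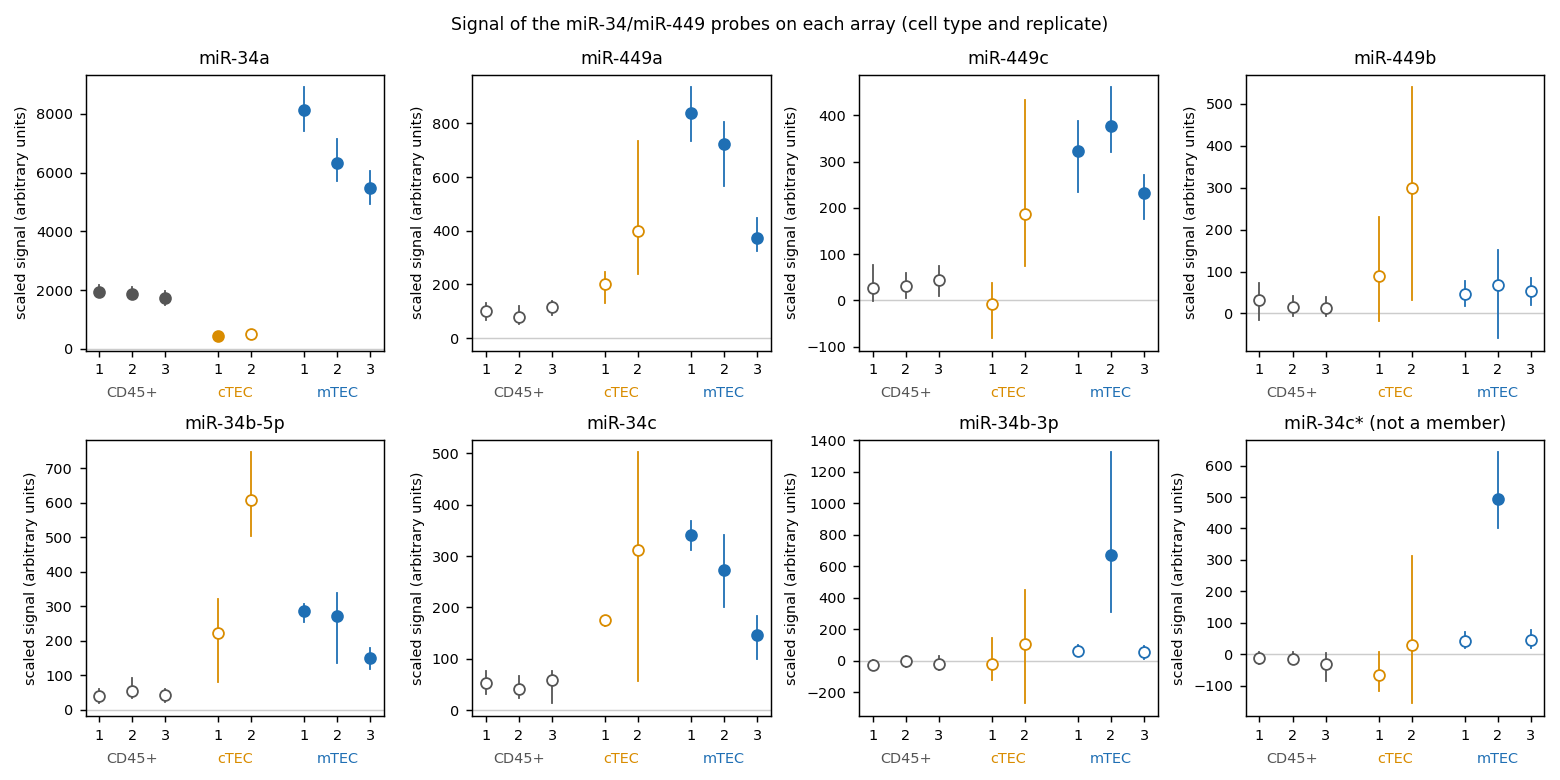
Scaled signal (arbitrary units, linear axis, a separate scale in each panel) of the 7 family members and of miR-34c* on each of the 8 arrays, by cell type and replicate. Points are means over the spots of a probe, vertical lines run from the lowest to the highest spot, and filled points are well above background. miR-34a is filled on 7 of the 8 arrays, while miR-449a, miR-449c, miR-34b-5p and miR-34c are filled on the 3 mTEC arrays alone and miR-449b on none.

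For the fit across miRNAs a floor of 621 replaced all smaller scaled signals. It is the weakest scaled signal well above background on cTEC replicate 2, the highest such limit of the 8 arrays. That array was also scaled up the most, since its unscaled 75th percentile was the lowest (1364). On this scale miR-34a was 1.84 higher in mTECs than in CD45+ cells (log2, standard error 0.14), or 3.62-fold in the ratio of mean signals. It was 3.40 higher in mTECs than in cTECs (standard error 0.16), and its difference of cTECs from CD45+ cells was -1.56 (standard error 0.16). Both cTEC arrays were under the floor for miR-34a, which understates the latter 2 values. With a lower floor they were 3.81 and -1.98. The arrays lie in 2 rows of the slide, each of which holds all 3 cell types. Within the first row miR-34a differed between mTECs and CD45+ cells by 2.11, and within the second by 1.77. Of the 5 members that entered the fit, miR-34a was the 1 past an adjusted p of 0.05 in each comparison, where 23.9% of the 309 tested miRNAs were past it for mTECs against CD45+ cells, 30.7% for cTECs against CD45+ cells and 22.7% for mTECs against cTECs. Nothing is read from this, because the members were chosen with these values in view. The difference between mTECs and CD45+ cells depended on the scaling. It was 1.00 when the percentile was taken over all mouse probes and 1.28 with no normalization between arrays. In neither was miR-34a past the threshold, from which nothing is read either.

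**Figure D2:**
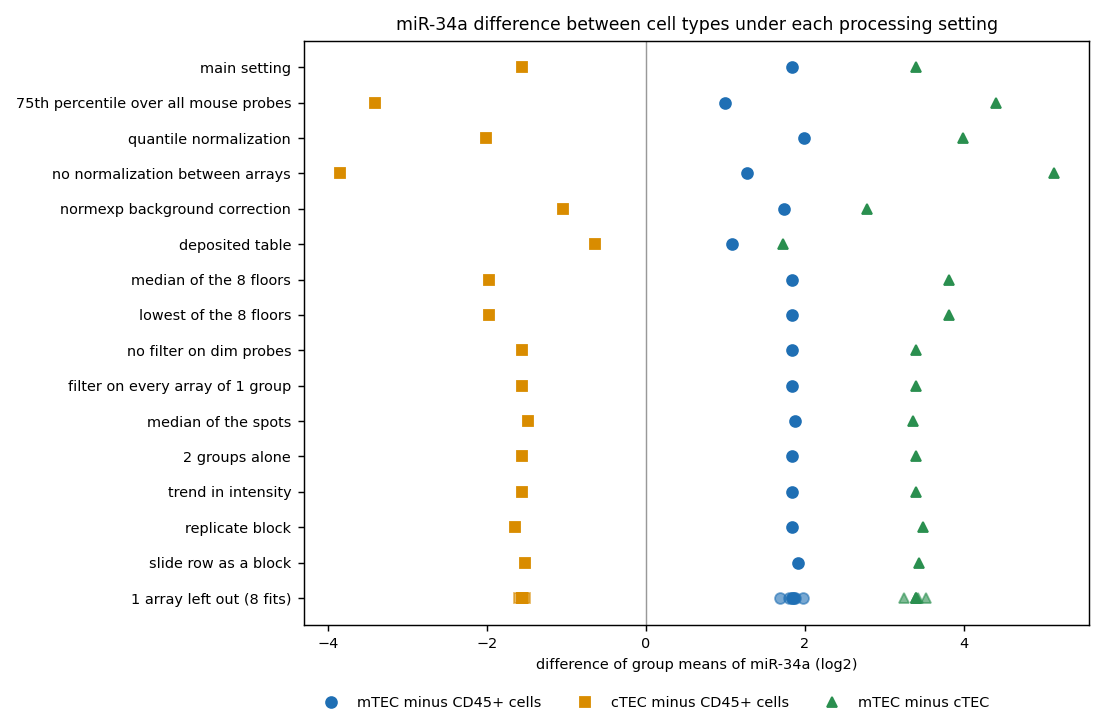
Difference of group means of miR-34a (log2 scale) for mTECs minus CD45+ cells (circles), cTECs minus CD45+ cells (squares) and mTECs minus cTECs (triangles), under the main setting and each alternative, with the 8 fits that leave out 1 array in the bottom line. Every circle and triangle lies above 0, from 1.00 to 1.98 and from 1.73 to 5.13, and every square below 0, from -3.85 to -0.64.

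Of the miR-449 cluster, miR-449a and miR-449c were well above background in mTECs alone. The scaled signal of miR-449a was 838, 724 and 375 on the mTEC arrays (mean 646 ± 242, SD, n = 3), and it was well above background on all 3. On the CD45+ arrays it was 102, 80.1 and 117, while the cTEC arrays gave 200 and 399. It was well above background on none of these 5 arrays. All mTEC arrays thus lay above the CD45+ arrays, but mTEC replicate 3 lay under cTEC replicate 2. Taking for each dim array the higher of the probe's own signal and the lowest signal well above background there, mTECs had at least 5.57-fold more miR-449a than CD45+ cells and at least 1.32-fold more than cTECs. These lower limits do not use the floor of the fit, which sits so close to the miR-449a signal that the fitted difference between mTECs and CD45+ cells was 0.22 (standard error 0.10). Between mTECs and cTECs it was 0.20 (standard error 0.12). With normexp background correction the latter was 0.13 (standard error 0.32), and with the median of the 8 floors 1.19 (standard error 0.39). Its size thus depended on the processing, from 0.09 to 1.77, while it stayed positive under every alternative. The normexp value is smaller than the limit of 1.32-fold, which holds for the main background subtraction and scaling.

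miR-449c was also above background in mTECs alone. Its scaled signal was 323, 377 and 232 on the mTEC arrays (mean 311 ± 73.4, SD, n = 3), well above background on all 3, and 26.2, 30.7 and 45.0 on the CD45+ arrays. On the cTEC arrays it was -7.77 and 186, where a negative value means that the spots were dimmer than their background. The mTEC arrays lay above all 5 others, and mTECs had at least 2.78-fold more miR-449c than CD45+ cells. Under this scaling no such limit can be given against cTECs, since the lowest signal that these arrays could separate from background was 342 and 621. miR-449b, the remaining member of the cluster, was measured on 0 of the 8 arrays, with scaled signals of 46.3, 66.8 and 53.2 on the mTEC arrays.

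The miR-34b/c cluster was likewise well above background in mTECs alone. miR-34b-5p had scaled signals of 287, 271 and 149 on the mTEC arrays (mean 236 ± 75.5, SD, n = 3) and of 39.9, 53.3 and 41.2 on the CD45+ arrays. miR-34c had 340, 273 and 147 on the mTEC arrays (mean 254 ± 97.9, SD, n = 3) and 52.8, 41.3 and 59.0 on the CD45+ arrays. Both probes were well above background on the 3 mTEC arrays and on none of the 5 others. In mTECs there was at least 2.06-fold more miR-34b-5p and at least 2.18-fold more miR-34c than in CD45+ cells. These lower limits move with the scaling. With the percentile taken over all mouse probes they were 1.15-fold and 1.22-fold, and those of miR-449a and miR-449c were 3.11-fold and 1.55-fold. Against cTECs the limit of miR-449a was then 2.71-fold, or 4.50-fold with no normalization, and that of miR-449c 1.35-fold or 2.24-fold. Those of miR-34b-5p and miR-34c against cTECs were 1.00-fold and 1.06-fold, or 1.67-fold and 1.76-fold with no normalization. Under the main scaling their order against cTECs was open. The scaled signal of miR-34b-5p on the cTEC arrays was 224 and 607, not well above background, and the latter exceeded every mTEC array, while unscaled it was 113 and 143 on the cTEC arrays and 165 to 572 on the mTEC arrays. For miR-34c the scaled cTEC signals of 176 and 311 overlapped those of mTECs, whereas the unscaled signals of 88.8 and 73.5 lay under the lowest mTEC array at 163.

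In all, 4 of the 7 members were well above background on all 3 mTEC arrays and no other array, a pattern that 17 of the 1040 mouse probes (1.63%) showed. It is a description of members chosen on these arrays. Single mTEC arrays measured 236 to 325 mouse probes and single CD45+ arrays 169 to 229, while 167 were measured on all 3 CD45+ arrays and 166 on all 3 mTEC arrays. The 5 members that were well above background throughout mTECs had in common that mTEC replicate 3 gave their lowest scaled signal of the 3 mTEC arrays. Of all 166 mouse probes measured on those 3 arrays, 31.3% were lowest on that replicate. In unscaled signal miR-34a was instead lowest on mTEC replicate 2 (4621, against 6089 on replicate 3), while miR-449a, miR-449c, miR-34b-5p and miR-34c were still lowest on replicate 3.

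The strands of the seed AUCACUA gave a signal on a single array. miR-34b-3p was well above background on mTEC replicate 2 alone, at 669, with spots from 309 to 1324, against 62.2 and 55.3 on the other mTEC arrays and -25.9 to 108 on the CD45+ and cTEC arrays. miR-34c*, not a member, was also well above background on that array alone, at 494, with spots from 403 to 642, and at 43.1 and 43.9 on the other mTEC arrays. The 5p strands of the same hairpins, miR-34b-5p at 271 and miR-34c at 273, lay between the other mTEC replicates there. On mTEC replicate 2, 47 mouse probes were well above background that were so on no other array, against 16 and 39 on mTEC replicates 1 and 3 and 0 to 5 on the CD45+ and cTEC arrays. The part of such array-wide signal in the 2 values was not tested. miR-34a* and miR-449a* were not well above background on any array.

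The profile of miR-34a over the 8 arrays was set against those of the other tested miRNAs. Likeness was the root mean square difference of log2 signals after centring each miRNA on its own mean, over 225 miRNAs not at the floor throughout. The smallest differences were those of miR-141 (0.63), miR-203 (0.66), miR-200a (0.68), miR-429 (0.69) and miR-375 (0.76), on a scale where miR-34a itself spanned 3.71. miR-141, miR-200a and miR-429 belong to the miR-200 family, which represses mesenchymal transcription factors, miR-203 is a miRNA of stratified epithelium and miR-375 of endocrine and secretory cells. All 5 were at the floor on each CD45+ array, where miR-34a was 1.47 to 1.62 above it. On the cTEC arrays miR-34a was at the floor too, and after centring it lay below all 5 there. At this floor miR-449c and miR-34c had no profile to compare. miR-449a, which spanned only 0.43, was closest to miR-100 (0.08), miR-96 (0.11), miR-669f-5p, miR-466h-5p and miR-138 (0.14 each). miR-34b-5p spanned only 0.08, and miR-450a-2*, miR-465a-5p, miR-7a, miR-669b and miR-320 were listed closest to it with next to no spread to compare. The list of miR-34a turned on the floor. With the lowest of the 8 limits, 67.0, as the floor and 308 miRNAs compared, the closest were miR-210 (0.57), miR-185 (0.59), miR-148a (0.71), miR-194 (0.75) and miR-455 (0.88). At that floor miR-449a and miR-449c were each among the 5 closest to the other (0.41), as were miR-34b-5p and miR-34c (0.42), but all 4 were in the background on 5 of the 8 arrays.

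**Figure D3:**
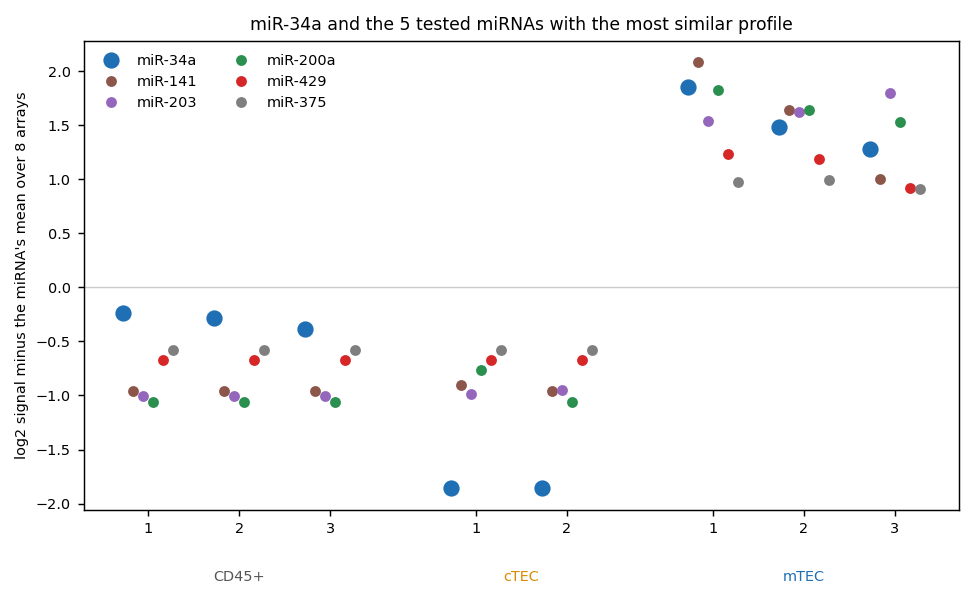
Log2 signal of miR-34a (large blue points) and of the 5 miRNAs with the most similar profile, each minus its own mean over the 8 arrays, by cell type and replicate. All 6 miRNAs lie above 0 on the mTEC arrays, while on the CD45+ arrays miR-34a lies above the others and on the cTEC arrays, where it is at the floor, below them.

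The other miRNAs reported to respond to p53, transcriptionally or in their processing, were followed as a list of 12, drawn up with earlier results of these arrays known. Of these, miR-605 had no probe in the table and 11 were tested. In mTECs against CD45+ cells 5 were higher, 2 were lower and 4 did not pass the test, where 9.06% of all 309 tested miRNAs were higher and 14.9% lower. The median log2 difference of the list was 0.39, against 0 over the 309 and also over the 226 that were not at the floor throughout. In cTECs against CD45+ cells 3 were higher and 3 lower (10.7% and 20.1% of all tested), with a median of 0. In mTECs against cTECs 7 were higher and 0 lower (16.2% and 6.47% of all tested), with a median of 1.16 against -0.02 over the 226. The list is not independent of cell type markers, since it shares miR-200c and miR-141 with the epithelial list and miR-143 and miR-145 with the mesenchymal list, and these 4 were higher in mTECs than in CD45+ cells.

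Of the members with no such overlap, miR-194, which is transcribed together with miR-192 or miR-215, had scaled signals of 1035, 1124 and 1092 on the mTEC arrays, 149 to 168 on the CD45+ arrays and 149 and 178 on the cTEC arrays. The mTEC arrays lay far above both other cell types, with a log2 difference of 0.80 at the floor from each of them (limma, adjusted p = 1.53e-05 against CD45+ cells and 4.35e-05 against cTECs). Every CD45+ and cTEC array was at the floor and so showed no spread, which makes these adjusted p-values too small. In cTECs against CD45+ cells both groups were at the floor for miR-194, and its direction there turned with the processing (1.02 with normexp, adjusted p = 0.00382, and -0.12 in the deposited table, adjusted p = 0.00832). Its partner miR-192 was well above background on the 3 mTEC arrays alone (mean 465 ± 52.5, SD, n = 3, against 62.8 ± 12.4 in CD45+ cells, n = 3). miR-215 was so too (239 ± 54.6, SD, n = 3, against 32.1 ± 6.58 in CD45+ cells, n = 3). On the cTEC arrays miR-215 was at 111 and 306, not well above background, and the latter exceeded every mTEC array. miR-192 and miR-215 were under the floor on every array and entered the fit as not different.

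miR-107 and miR-15a were lower in both epithelial populations than in CD45+ cells, and miR-16 was lower in cTECs. miR-107, which represses genes of the cell cycle and the hypoxia response, had scaled signals of 2763, 2765 and 2443 in CD45+ cells, 1485, 1569 and 1623 in mTECs and 545 and 314 in cTECs. It was thus lowest in cTECs, as miR-34a was, but highest in CD45+ cells. Its log2 difference from CD45+ cells was -0.77 in mTECs (limma, adjusted p = 1.66e-04) and -2.06 in cTECs (adjusted p = 4.38e-06), where the mean signal of both arrays was under the floor, which understates the latter value. With quantile normalization the mTEC value was -0.43 and no longer passed (adjusted p = 0.373). miR-15a was 0.73 lower in mTECs and 0.74 lower in cTECs than in CD45+ cells on the log2 scale (limma, adjusted p = 0.0012 and 0.0016), with the mean signal of every epithelial array under the floor. With normexp background correction neither passed, at differences about as large (-0.79 in mTECs and -0.66 in cTECs, adjusted p = 0.0580 and 0.0807). miR-16, which comes from the same cluster as miR-15a and like it represses cyclins and Bcl2, was lower in cTECs by 2.63 (log2, adjusted p = 0.0024), and its difference of mTECs from CD45+ cells was -1.09 (adjusted p = 0.0754). It passed with several other settings at values of -1.34 to -1.09, with adjusted p of 4.54e-04 for the 2 groups alone, 0.0031 with quantile normalization, 0.0121 with normexp, 0.0013 with the deposited table, 0.0304 and 0.0323 with the median and lowest floors, and 0.0475 with the filter that asks for every array of a cell type. The call was also made without cTEC replicate 1 (adjusted p = 0.0013) or without cTEC replicate 2 (adjusted p = 7.50e-04).

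**Figure D4:**
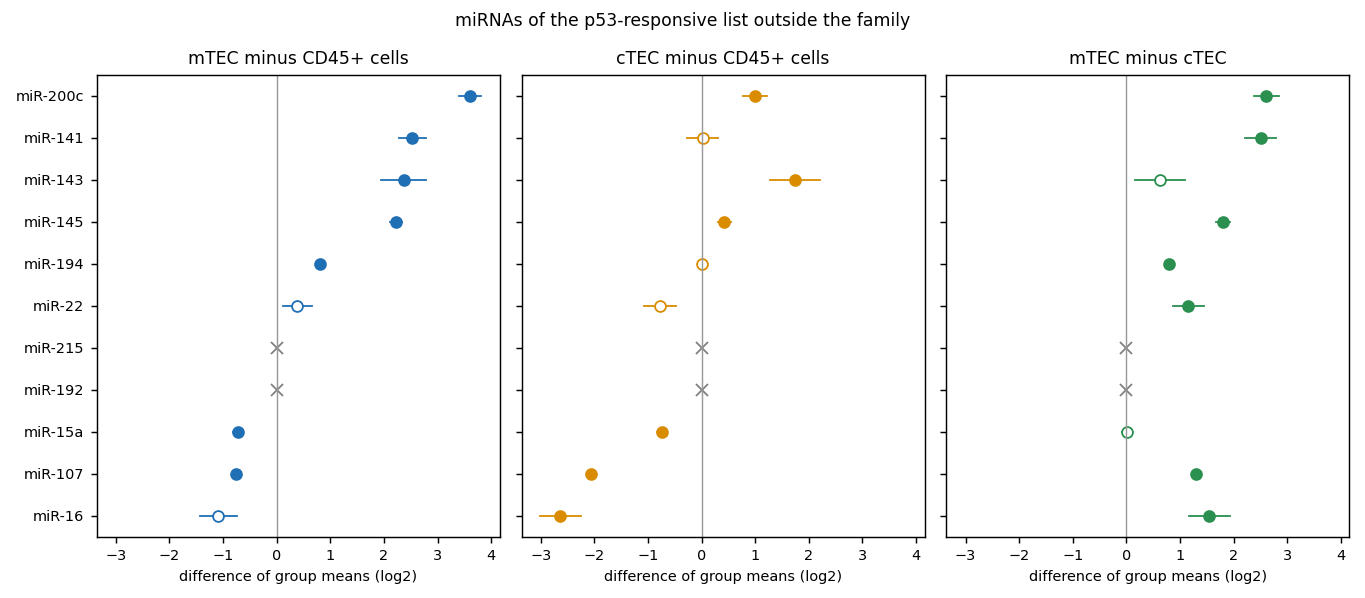
Log2 difference of group means, with bars of 1 standard error, for the 11 tested miRNAs of the p53-responsive list outside the family, in mTECs minus CD45+ cells, cTECs minus CD45+ cells and mTECs minus cTECs. Filled points passed an adjusted p of 0.05 in limma, open points did not, and crosses mark miR-192 and miR-215, which were at the floor on every array. Against CD45+ cells miR-194 is higher in mTECs while miR-15a and miR-107 are lower.

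Several calls of this list lay close to the threshold. In mTECs against cTECs, miR-16 was 1.55 higher (log2, limma, adjusted p = 0.0325) and miR-22 was 1.16 higher (adjusted p = 0.0379). Without any 1 of the 3 CD45+ and 3 mTEC replicates miR-16 differed by 1.51 to 1.59, with an adjusted p between 0.0616 and 0.0953. Without any 1 of these replicates miR-22 differed by 1.00 to 1.25, with an adjusted p between 0.0655 and 0.107, and without cTEC replicate 2 by 0.69 (adjusted p = 0.139). With quantile normalization miR-22 differed by 0.52 (adjusted p = 0.258) and in the deposited table by 0.66 (adjusted p = 0.117). With the percentile over all mouse probes neither miR-16 nor miR-22 passed, at larger differences (2.58 and 2.17, adjusted p = 0.123 and 0.166). Neither passed without the filter on dim probes or with the 2 groups alone, at unchanged differences. In the fit with a replicate block the difference of miR-16 was 1.60 (adjusted p = 0.0856). In cTECs against CD45+ cells the 3 higher calls were miR-143 (1.75), miR-145 (0.42) and miR-200c (1.00). The CD45+ arrays were at the floor for all 3, so these differences are understated. The calls of miR-143 and miR-145 were lost without any 1 of the CD45+ or mTEC replicates, at unchanged differences (adjusted p of 0.0641 to 0.0964 and 0.0754 to 0.116), and that of miR-200c without any 1 of the CD45+ replicates (0.0569 to 0.0595). All 3 calls were also lost with the percentile over all mouse probes (adjusted p of 0.195, 0.356 and 0.319), with no normalization (0.198, 0.391 and 0.520), with the deposited table, without the filter on dim probes, with the replicate block and with the 2 groups alone. That of miR-145 was lost as well with quantile normalization, at a larger difference (1.41, adjusted p = 0.0536), with the median of the spots (0.36, adjusted p = 0.249), with an intensity trend (adjusted p = 0.0590) and with the slide row as a block (adjusted p = 0.0603). Without cTEC replicate 1, miR-143 passed in mTECs against cTECs (1.50, adjusted p = 6.46e-05), and miR-22, at -0.77 in cTECs against CD45+ cells (limma, adjusted p = 0.125), passed at -1.24 (adjusted p = 0.0113). miR-22 also passed there with the percentile over all mouse probes (-2.63, adjusted p = 0.0451), no normalization (-3.09, adjusted p = 0.0204), the replicate block (-0.85, adjusted p = 0.0419) and the slide row as a block (-0.69, adjusted p = 0.0341).

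Markers of the sorted cells were examined beside these values. Of 7 epithelial miRNAs, all 7 were well above background on every mTEC array, with a summed scaled signal of 36800 to 39058, 3 to 5 on the cTEC arrays (4442 to 8620) and 0 to 3 on the CD45+ arrays (623 to 704). miR-429 and miR-203 stayed in the background of both cTEC arrays, so the epithelial label of the cTECs rests on fewer of its markers. The 5 blood cell miRNAs summed to 20943 to 25073 on the CD45+ arrays, 3310 to 4758 on the cTEC arrays and 1908 to 2436 on the mTEC arrays. All 5 were well above background on every CD45+ array, 2 on each cTEC array and 3 to 5 on the mTEC arrays. On both cTEC arrays these were miR-150 and miR-181a, while miR-142-3p, miR-142-5p and miR-223 were so on neither. The 5 mesenchymal miRNAs summed to 189 to 301, 2232 to 5117 and 6294 to 6660 in the same order, with miR-199a-3p and miR-199a-5p not well above background on any array. Of the endothelial miRNAs miR-126-3p was well above background on every array and miR-126-5p on none, with sums of 212 to 295, 1527 to 2755 and 497 to 550. Of the erythroid miRNAs miR-451 was not well above background on any array and miR-144 was so on mTEC replicate 3 alone, with sums of 87.0 to 129, 198 to 940 and 116 to 228. The epithelial and mesenchymal sums were highest in mTECs, where miR-34a was highest, and their part in its difference was not tested.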

How the data were processed

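RNA of the 8 preparations was labelled with Cy3 alone and hybridized to 8 arrays of 1 slide, each mouse probe having 5 spots. The authors deposited the scanner's output of each array as intensity before and after background subtraction (Feature Extraction 10.7.3.1 in the file headers). They also deposited a table of log2 signals after quantile normalization, whose ranks equalled those of the median spot intensity on every array, with fold changes, adjusted p-values and log odds of their own comparisons, which were not used. The submitters' processing notes name limma without a version. The table's positions name no genome build, so positions here are those of RefSeq.

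From the processed intensity, outlier spots were left out, a common 75th percentile was set over the 65 mouse probes measured on every array, a floor of 621 replaced smaller signals, and spots were averaged on the log2 scale. The floor was needed because 14.2% to 29.8% of an array's spots were at 0 or less, and it was set with the signals known. The test took miRNAs measured on 2 or more arrays (309, of which 83 were at the floor throughout) and used lmFit and eBayes of limma 3.58.1 in R 4.3.3, in 1 model of the 3 cell types with 5 residual degrees of freedom and Benjamini-Hochberg adjustment. A group wholly at the floor shows no spread, and its standard errors are then too small. The steps were tested on simulated data. The number of arrays limits the precision.

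The text names the 7 members, their opposite strands, probes sharing their seeds, the p53-responsive list and, for members measured on at least 3 arrays and not at the floor throughout, the 5 miRNAs of most similar profile. Members and lists were chosen with earlier results of these data known. As alternatives, the scaling was changed (75th percentile over all mouse probes, quantile, none), normexp was run on median signals with an offset of 50, the deposited table was fitted, and the floor was lowered to the median or the lowest of the 8. The filter on dim probes, the summary of the spots, the groups in the fit and an intensity trend were also varied, blocks for replicate number or slide row were added, and each array was left out. Replicate numbers were shared between cell types. Deviations of same-numbered arrays correlated from -0.23 to 0.28 and over 0.1 in 3 of 7 pairs. Both pairs of cTECs with mTECs were among these 3 (0.28 and 0.20). Arrays of different number were not compared, so this cannot decide whether the numbers pair the samples. The main fit did not pair them.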

Additional observations from a re-analysis of the deposited data

Results flagged for a closer look

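The miR-34a differences from CD45+ cells went opposite ways in the epithelial populations: 1.84 on the log2 scale in mTECs, with all 3 arrays above every CD45+ array, and -1.56 in cTECs, with both arrays below every CD45+ array. The pattern was picked out because every array of each population moved the same way. The difference between the 2 values was not tested, since miR-34a was selected on these arrays, and the value in cTECs is bounded by the floor.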

How the results depend on the processing

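The direction of miR-34a was kept in all 3 comparisons under every alternative that was run. Its difference of mTECs from CD45+ cells (1.84) was 1.00 with the percentile over all mouse probes, 1.28 with no normalization and 1.09 with the deposited table, whose values hold the unsubtracted background. The difference of cTECs from CD45+ cells (-1.56) was -3.40 with the percentile over all mouse probes, -2.01 with quantile normalization, -3.85 with no normalization, -1.04 with normexp, -0.64 with the deposited table, -1.98 with either lower floor, -1.49 with the median of the spots and -1.64 with the replicate block. That of mTECs from cTECs (3.40) was 4.40, 3.99, 5.13, 2.78, 1.73 and 3.81 under the same alternatives up to the lower floors. Leaving out 1 array gave 1.68 to 1.97, -1.60 to -1.52 and 3.24 to 3.53.

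Members past an adjusted p of 0.05 (1 in each comparison) depended on the floor and on the background. In mTECs against CD45+ cells they numbered 0 with the percentile over all mouse probes, 5 with normexp, 3 with the deposited table, 3 with the median floor and 5 with the lowest. With no normalization the 1 was miR-449a. In cTECs against CD45+ cells they numbered 5 with normexp, 3 with the median and 4 with the lowest floor. In mTECs against cTECs they numbered 2 with normexp (201 of all 309) or the lowest floor and 3 with the deposited table or median floor. Leaving out 1 array gave 1 to 2 in each comparison: 2 without mTEC replicate 3 in mTECs against either population, where miR-449a also passed, and 2 without cTEC replicate 1 in both comparisons with cTECs, where the spread of the remaining cTEC array had to be borrowed from the other cell types.

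Among all tested miRNAs, the count in mTECs against CD45+ cells (74) was 118 with normexp, 121 with the deposited table, and 115 and 140 with the median and lowest floors (leaving out 1 array, 67 to 75). In cTECs against CD45+ cells (95) it was 250, 200 and 224 with normexp and these floors (82 to 170, the highest without cTEC replicate 1). In mTECs against cTECs (70) it was 39 with the percentile over all mouse probes and 201, 130 and 129 with normexp and the floors (58 to 147, the highest without cTEC replicate 1). The split of higher and lower calls moved with the scaling. With the percentile over all mouse probes it was 18 and 92 (28 and 46 in the main setting) in mTECs against CD45+ cells, 6 and 114 (33 and 62) in cTECs against CD45+ cells and 38 and 1 (50 and 20) in mTECs against cTECs. With no normalization the latter 2 were 2 and 111 and 73 and 0, and with quantile normalization 55 and 74 and 37 and 45. The median over the tested miRNAs was 0, and moved by over 0.1 under another scaling in comparisons with cTECs alone: in cTECs against CD45+ cells to -0.12 with the percentile over all mouse probes and to -0.43 with no normalization, and in mTECs against cTECs to 0.41 with no normalization. With normexp it was 0.35, 1.38 and -0.97 in mTECs against CD45+ cells, cTECs against CD45+ cells and mTECs against cTECs, with the median floor 0.22, 0.65 and -0.31, and with the lowest floor 0.45, 0.86 and -0.33.

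The fit with the replicate block gave 69, 86 and 60 calls in the 3 comparisons, and the slide row as a block 71, 92 and 67. With the replicate block the miR-34a differences of mTECs were 1.84 from CD45+ cells and 3.48 from cTECs, and of the p53-responsive list the higher calls in cTECs against CD45+ cells went from 3 to 0. With the median and the lowest floor, miR-192 was called in mTECs against CD45+ cells (1.83 and 2.58) and cTECs (1.63 and 2.16), miR-215 in mTECs against CD45+ cells (0.85 and 1.78) and, with the lowest, in cTECs (1.35), and miR-141 in cTECs against CD45+ cells (1.78 and 2.08). All 3 were also called in cTECs against CD45+ cells with normexp, as were miR-192 and miR-215 in mTECs, and miR-192 in mTECs with the deposited table and no normalization. miR-192 and miR-215 were in the background of all CD45+ and cTEC arrays, so no size is read here. For the members other than miR-34a, the signal over background on the cTEC arrays limits what can be said. The causes of these changes were not tested.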
